A study of Rattus norvegicus with 6 samples.

Results

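The genes of the skeletal muscle sarcomere and of muscle calcium handling were followed in rat tendon after injury. The set was given by name: 39 genes for the myosin and actin filaments, the Z-disc and M-band, the release and uptake of calcium, and the energy buffers of the muscle fibre. Each gene was read from the probe set that the platform annotation assigns to that gene alone. Of the 39 genes, 38 had such a probe set and each had 1, out of 22093 genes tested in all. Mylpf had none and is not analysed here.

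The samples were tendons of Sprague-Dawley rats taken 1 week after tendon injury (3 arrays) or after control surgery (3 arrays), with 1 array per sample. Rats were allocated at random, and the labels call the samples biological replicates. The labels state neither age nor sex, neither the tendon used nor the kind of injury, and not what else the dissected tissue contained. Nothing says that the samples came from separate animals beyond the word biological, so p-values measure the spread between these samples.

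The sarcomere is the contractile unit of striated muscle, in which myosin of the thick filament pulls on actin of the thin filament. Contraction starts when calcium leaves the sarcoplasmic reticulum and binds troponin, and it ends when calcium is pumped back. Fast and slow muscle fibres build the same machine from different paralogs of myosin, troponin, the calcium pump and calsequestrin. Tendon cells do not form sarcomeres, and tendon joins muscle at the myotendinous junction. In bulk tissue, fewer muscle fibres in a sample and less muscle RNA per fibre cannot be told apart.

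Signals are log2 values, so that a difference of 1 stands for 2-fold. The arrays differed in ways that touch every value given here. Over all genes, Pearson's r between injured replicate 1 and each control array was 0.951 to 0.966. Between injured replicates 3 and 2 it was 0.965, and between either of them and a control array 0.687 to 0.833. Unnamed probe sets had a median of 5.59 for injured replicate 1, 6.61 for injured replicate 2 and 6.50 for injured replicate 3, with control medians of 5.49 to 5.79. Genes with a mean signal of at least 10, 1340 in number, stood at a median of 0.04, -2.56 and -2.11 from the control mean on injured replicates 1, 2 and 3. Over 224 olfactory and vomeronasal receptor genes, which tendon is not known to use, the median was -0.03, 2.14 and 2.0 from the control mean on injured replicates 1, 2 and 3. The labels give neither a batch nor an RNA quality for any array, so whether injured replicates 2 and 3 differ from the other arrays in these was not tested, and every difference between injured and control includes those arrays. The highest value of an array was 19.86 to 19.93, and a value within 0.02 of it is called at the ceiling. Tenocyte markers were present on the control arrays (Kera, which encodes keratocan, read 15.46 to 19.17). Scx, however, a tendon transcription factor, read 5.44 to 5.78 on injured and 5.67 to 5.75 on control arrays. That is close to the median of the unnamed probe sets on the control arrays and on injured replicate 1. On injured replicates 2 and 3 Scx read 5.72 and 5.78, under that median (6.61 and 6.50).

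Skeletal muscle genes had lower signals in injured than in control tendon, with a median difference of -3.36 over the 38 genes, against 0.15 over all genes. No muscle gene passed the test over all genes (limma, adjusted p of 0.322 at the lowest for a muscle gene), where 0% of all genes were called. At an unadjusted p under 0.05, 6 of the 38 genes were lower, against 7.25% of all genes, and 0 were higher, against 4.39%. At least 2-fold lower were 37 of the 38 genes, against 10.9% of all genes and 65.0% of the genes with a mean of at least 10, and 0 were at least 2-fold higher, against 9.68%. Of the 38 muscle genes, 32 were in that bright class, and all 32 were at least 2-fold lower. At an unadjusted p under 0.05 in limma, 5 of these 32 were lower, against 323 of the 1340 genes of the bright class.

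The mean over 3 injured arrays hides a wide spread. The median over the 38 genes was -0.07, -6.03 and -3.93 from the control mean on injured replicates 1, 2 and 3, and 1.31, -0.495 and -0.64 on control replicates 1, 2 and 3. On injured replicate 2, every one of the 38 genes was below all control arrays (32.6% of all genes were) and at least 2-fold below the control mean, against 16.9% of all genes and 77.5% of the bright ones. How many bright genes were below all control arrays on injured replicates 2 and 3 was not counted. On injured replicate 3, 32 of the 38 genes were below all control arrays, against 33.3% of all genes. These include Acta1, at 19.86 against 19.93, which was at the ceiling on that array and on every control array. At least 2-fold below the control mean on injured replicate 3 were 30 of 38 genes, against 16.1% of all genes and 74.9% of the bright ones. On injured replicate 1 at least 2-fold below the control mean were 6 of 38 genes, against 2.63% of all genes and 11.3% of the bright ones. The groups did not overlap for 4 muscle genes, Mylk4, Myom2, Casq1 and Ldb3, all lower in injured tendon, against 8.00% of all genes that were lower without overlap, and for 0 muscle genes were they higher without overlap, against 7.09%. Of the 32 bright muscle genes 3 were lower without overlap, against 17.6% of all bright genes. Without injured replicate 1 the limma test called 26 of the 38 genes, all lower, but it then called 60.7% of all genes.

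**Figure D1:**
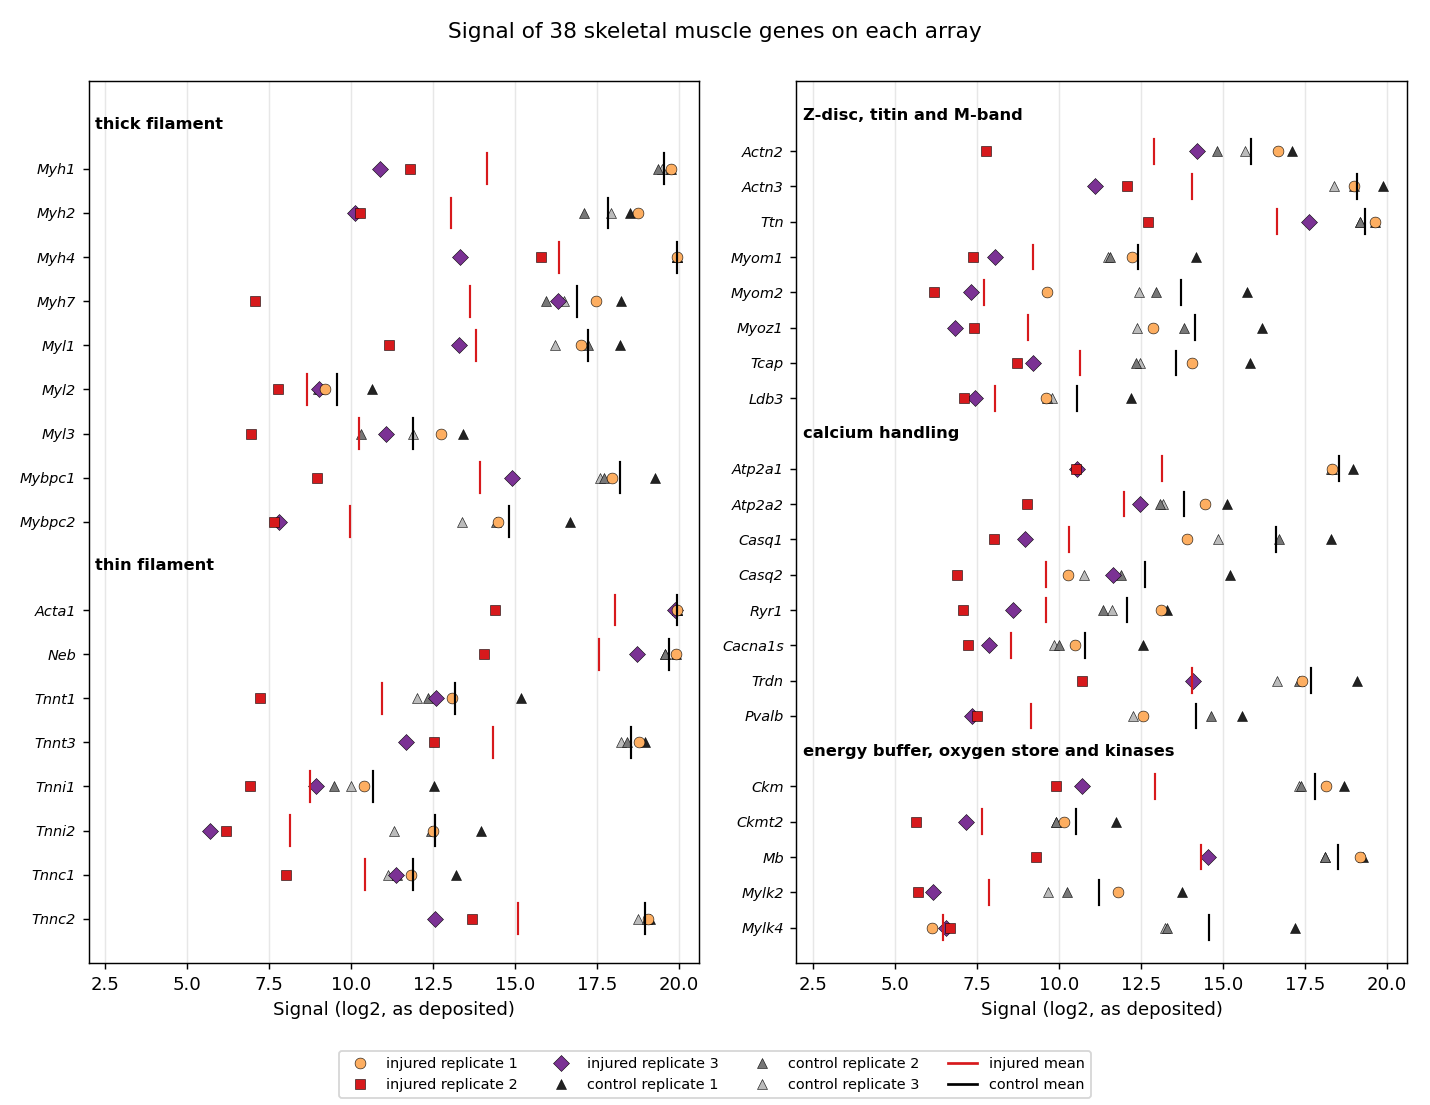
Signal (log2, x axis) of 38 muscle genes (rows, grouped by role) on 3 injured and 3 control arrays, with lines at the group means. Injured replicate 1 (circles) lies among the control triangles for most genes, injured replicate 2 (squares) lies below them for all 38, and injured replicate 3 (diamonds) lies near them for genes such as Myh7, Acta1 and Tnnt1.

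Promoter windows are shown for genes that mark the patterns described next: the fast myosin Myh4 and the slow myosin Myh7, which parted on injured replicate 3, the actin gene Acta1 and the kinase gene Mylk4. Each window is 300 bases of rat RefSeq sequence (build GRCr8), running 5′ to 3′ on the gene's strand from 250 bases before the start of the gene to 50 after it. They are Myh4 at chr10:52421898-52422197 (+), Myh7 at chr15:32438145-32438444 (-), Acta1 at chr19:68784145-68784444 (-) and Mylk4 at chr17:31877489-31877788 (+). Capitals mark the E-box CANNTG, which myogenic factors bind, the MCAT motif CATTCC, the MEF2 site and the CArG box, searched on both strands, with overlaps between motifs allowed.
Myh4: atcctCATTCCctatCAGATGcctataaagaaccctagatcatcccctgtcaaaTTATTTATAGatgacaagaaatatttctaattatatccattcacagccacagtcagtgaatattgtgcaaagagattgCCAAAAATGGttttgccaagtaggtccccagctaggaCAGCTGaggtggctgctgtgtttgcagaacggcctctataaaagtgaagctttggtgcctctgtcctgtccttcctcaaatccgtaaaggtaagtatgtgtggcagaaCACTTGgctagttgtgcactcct
Myh7: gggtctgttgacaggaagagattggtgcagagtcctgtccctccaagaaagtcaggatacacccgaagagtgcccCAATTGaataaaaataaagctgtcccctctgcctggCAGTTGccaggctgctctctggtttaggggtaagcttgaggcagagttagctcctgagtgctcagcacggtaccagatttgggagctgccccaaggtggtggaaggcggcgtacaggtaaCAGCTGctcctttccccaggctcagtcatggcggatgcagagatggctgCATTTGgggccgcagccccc
Acta1: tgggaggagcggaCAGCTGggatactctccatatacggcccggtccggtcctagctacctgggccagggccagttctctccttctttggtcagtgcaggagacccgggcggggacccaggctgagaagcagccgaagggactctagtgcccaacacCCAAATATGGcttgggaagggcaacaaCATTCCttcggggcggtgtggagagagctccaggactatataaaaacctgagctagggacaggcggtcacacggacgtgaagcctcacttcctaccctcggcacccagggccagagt
Mylk4: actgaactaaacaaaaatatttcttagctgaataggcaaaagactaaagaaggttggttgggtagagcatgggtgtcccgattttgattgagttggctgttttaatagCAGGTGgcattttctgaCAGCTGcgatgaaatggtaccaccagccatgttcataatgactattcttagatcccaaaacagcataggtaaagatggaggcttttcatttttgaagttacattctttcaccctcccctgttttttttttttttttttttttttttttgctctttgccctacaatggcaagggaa
The Myh4 window held 3 E-boxes, 1 MCAT motif, 1 MEF2 site and 1 CArG box. In the Myh7 window there were 4 E-boxes and none of the other motifs, and the Mylk4 window held 2 E-boxes alone. Acta1 had 1 E-box, 1 MCAT motif and 1 CArG box, the last starting 94 bases before the start of the gene. The starts are those of the annotation, and whether transcription begins there was not tested. In the Myh7 window an ATG stands a few bases after that start, so the window may lie inside the gene. Motifs absent from it may then lie elsewhere in the Myh7 promoter.

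Over the 33 windows found for 32 muscle genes, a MEF2 site was present in 18.2% and a CArG box in 12.1%, against 1.87% and 1.64% of all 33469 promoter windows. An E-box was present in 87.9% of the muscle windows, against 72.1% of all windows, and an MCAT motif in 21.2%, against 14.2%. Among fast isoforms, 4 of 13 windows held a MEF2 site, and among slow isoforms 1 of 7. These are matches of letters in a short window at the annotated start, described without a test.

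The thick filament is built of myosin heavy chains with their light chains and the binding protein C. Its 9 measured genes had a median of 0.00, -7.16 and -3.92 from the control mean on injured replicates 1, 2 and 3. Myh1, the heavy chain of fast type IIx fibres, read 19.74, 11.78 and 10.89 on injured replicates 1, 2 and 3, against 19.74, 19.34 and 19.49 on control replicates 1, 2 and 3. Myh2, the heavy chain of type IIa fibres, read 18.74, 10.26 and 10.13 on the injured arrays, against 18.49, 17.10 and 17.93 on the control arrays. On injured replicate 1, Myh1 equalled the highest control and Myh2 was above every control, while both genes were far below the controls on injured replicates 2 and 3.

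Myh4, the heavy chain of the fastest fibres, type IIb, was at the ceiling on injured replicate 1, at 19.93, and read 15.78 and 13.32 on injured replicates 2 and 3, against 19.93 on each control array. Because it is at the ceiling in both groups, no fold is given for it. Myh7, the slow heavy chain, read 17.45, 7.06 and 16.32 on the injured arrays, against 18.23, 15.95 and 16.48 on the control arrays. Injured replicate 3 thus lay within the control range for Myh7, while injured replicate 2 was 9.83 under the control mean on the log2 scale, the widest gap of any of the 38 genes on any array. The limma difference of Myh7 was -3.28 (SE 2.82, adjusted p = 0.445). Myh2, Myh1 and Myh4 stand next to one another on rat chromosome 10, with 0 other protein-coding genes between neighbours. How far probe sets of such similar myosin genes share signal was not tested.

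The light chains stabilise the lever of the myosin head. Myl1, the fast essential light chain, read 17.01, 11.16 and 13.29 on the injured arrays, against 18.20, 17.21 and 16.22 on the control arrays. Myl3, the slow essential light chain, read 12.73, 6.94 and 11.06 on the injured arrays, against 13.42, 10.29 and 11.90 on the control arrays. Injured replicates 1 and 3 were within the control range for Myl3 and injured replicate 2 was not. The slow regulatory chain Myl2 had the narrowest spread of the 38 genes over the injured arrays after Mylk4, with 9.20, 7.78 and 9.01, against 10.64, 9.0 and 9.04 on the control arrays, a difference of -0.90 (SE 0.60, adjusted p = 0.359).

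Myosin-binding protein C ties the thick filament into register. The fast form Mybpc2 read 14.47, 7.66 and 7.81 on the injured arrays, against 16.66, 14.43 and 13.38 on the control arrays. The slow form Mybpc1 read 17.94, 8.95 and 14.90 on the injured arrays, against 19.26, 17.71 and 17.60 on the control arrays. On injured replicate 3, Mybpc1 was below every control array but 5.95 above its own value on injured replicate 2.

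The thin filament carries the calcium switch. Its 8 genes had a median of -0.03, -5.59 and -1.34 on the injured arrays, and 4 of the 8 were at least 2-fold below the control mean on injured replicate 3, against 8 of 8 on injured replicate 2. Acta1, skeletal muscle actin, was at the ceiling on injured replicates 1 and 3 and on every control array, and read 14.38 on injured replicate 2, so no fold is given. Neb, which encodes nebulin, the giant protein that runs along actin, read 19.89, 14.05 and 18.72 on the injured arrays, against 19.90, 19.56 and 19.56 on the control arrays.

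Troponin T anchors troponin to tropomyosin. The fast gene Tnnt3 read 18.78, 12.52 and 11.68 on the injured arrays, against 18.97, 18.40 and 18.21 on the control arrays. The slow gene Tnnt1 read 13.07, 7.21 and 12.58 on the injured arrays, against 15.19, 12.33 and 12.02 on the control arrays, so that injured replicates 1 and 3 lay within the control range.

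Troponin I holds the filament off until calcium arrives. Tnni2, the fast form, read 12.51, 6.19 and 5.69 on the injured arrays, against 13.97, 12.44 and 11.30 on the control arrays. On injured replicates 2 and 3 it was under the median of the unnamed probe sets of the same arrays (6.61 and 6.50), and its difference, -4.44 (SE 1.96, adjusted p = 0.322), is bounded by background. Tnni1, the slow form, read 10.39, 6.92 and 8.94 on the injured arrays, against 12.52, 9.47 and 9.99 on the control arrays.

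Troponin C binds the calcium. Tnnc2, the fast form, read 19.05, 13.67 and 12.55 on the injured arrays, against 19.10, 19.02 and 18.74 on the control arrays. Tnnc1, the form of slow and cardiac muscle, read 11.83, 8.02 and 11.38 on the injured arrays, against 13.19, 11.39 and 11.12 on the control arrays. All 3 fast troponins were thus low on injured replicates 2 and 3, while of the slow ones Tnnt1 and Tnnc1 were low on injured replicate 2 and within the control range on injured replicate 3.

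The Z-disc and M-band hold the filaments in place. Their 8 genes had a median of -0.13, -6.67 and -4.36 on the injured arrays, and 8 of 8 were at least 2-fold below the control mean on injured replicates 2 and 3. Actn3, the alpha-actinin of fast fibres, read 19.01, 12.09 and 11.10 on the injured arrays, against 19.87, 19.01 and 18.38 on the control arrays. Actn2, the alpha-actinin of all fibres, read 16.68, 7.78 and 14.20 on the injured arrays, against 17.12, 14.82 and 15.66 on the control arrays. Ttn, which encodes titin, the spring that spans from Z-disc to M-band, read 19.63, 12.71 and 17.64 on the injured arrays, against 19.63, 19.17 and 19.17 on the control arrays.

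Myom2, an M-band protein gene of fast fibres, was low on all 3 injured arrays. It read 9.65, 6.18 and 7.32 on injured replicates 1, 2 and 3, against 15.75, 12.96 and 12.44 on control replicates 1, 2 and 3. Its mean was 7.72 ± 1.77 in injured and 13.72 ± 1.78 in control tendon (SD, n = 3 each), a difference of -6.0 (SE 1.22, adjusted p = 0.322 in limma). On injured replicate 2 it was under the median of the unnamed probe sets (6.61), so background bounds that difference. The related M-band gene Myom1 read 12.24 on injured replicate 1, between the lowest and the highest control value. Ldb3, a Z-disc scaffold gene, read 9.62, 7.12 and 7.45 on the injured arrays, against 12.19, 9.65 and 9.80 on the control arrays, and on injured replicate 1 it was just under the lowest control. Myoz1, a calcineurin-binding Z-disc protein gene of fast fibres, differed by -5.09 (SE 1.86) and Tcap, which caps titin, by -2.90 (SE 1.73).

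Genes of calcium handling had a median of -0.30, -6.19 and -3.55 on the injured arrays over 8 genes. Atp2a1, the calcium pump SERCA1 of fast fibres, read 18.33, 10.53 and 10.55 on the injured arrays, against 18.97, 18.32 and 18.31 on the control arrays. Atp2a2, the pump SERCA2 of slow fibres, heart and, in another splice form, most cells, read 14.47, 9.04 and 12.46 on the injured arrays, against 15.13, 13.08 and 13.19 on the control arrays. On injured replicate 3 the fast pump was 7.98 under its control mean on the log2 scale, and the slow pump 1.34 under its own.

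Calsequestrin stores calcium in the sarcoplasmic reticulum. Casq1, its fast form, read 13.92, 8.01 and 8.97 on the injured arrays, against 18.29, 16.71 and 14.86 on the control arrays. Its mean was 10.30 ± 3.17 in injured and 16.62 ± 1.72 in control tendon (SD, n = 3 each), a difference of -6.32 (SE 1.75, adjusted p = 0.322), or 79.9-fold, and the groups did not overlap. Casq2, the form of slow and cardiac muscle, read 10.28, 6.90 and 11.64 on the injured arrays, against 15.21, 11.90 and 10.77 on the control arrays. On injured replicate 1 both calsequestrin genes were below every control array.

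Calcium release itself needs the voltage sensor and the release channel. Ryr1, the release channel, read 13.12, 7.08 and 8.59 on the injured arrays, against 13.29, 11.34 and 11.61 on the control arrays, and was the 1 gene of the 38 at least 2-fold above the control mean on injured replicate 1, by 1.04, within the control range. Cacna1s, the voltage sensor subunit, read 10.50, 7.22 and 7.88 on the injured arrays, against 12.57, 10.01 and 9.85 on the control arrays. Trdn, which encodes triadin, a link between calsequestrin and the channel, read 17.41, 10.71 and 14.08 on the injured arrays, against 19.10, 17.33 and 16.66 on the control arrays. Pvalb, the calcium buffer parvalbumin of fast fibres, read 12.58, 7.52 and 7.34 on the injured arrays, against 15.59, 14.64 and 12.27 on the control arrays, a difference of -5.02 (SE 1.67, adjusted p = 0.322).

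The last group of 5 genes serves energy and signalling. Ckm, the cytosolic creatine kinase of muscle, read 18.15, 9.91 and 10.72 on the injured arrays, against 18.70, 17.39 and 17.31 on the control arrays. Ckmt2, the mitochondrial creatine kinase of muscle, differed by -2.86 (SE 1.23). Mb, which encodes the oxygen store myoglobin, rich in slow and oxidative fibres, read 19.19, 9.30 and 14.55 on the injured arrays, against 19.28, 18.11 and 18.10 on the control arrays. Mylk2, the skeletal myosin light chain kinase, differed by -3.33 (SE 1.97). Ckmt2 on injured replicate 2, and Mylk2 on injured replicates 2 and 3, were under the median of the unnamed probe sets, so background bounds both differences.

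Mylk4, a related kinase gene, had the largest difference of the 38 genes. It read 6.14, 6.68 and 6.57 on injured replicates 1, 2 and 3, against 17.21, 13.30 and 13.24 on control replicates 1, 2 and 3. Its mean was 6.46 ± 0.29 in injured and 14.58 ± 2.27 in control tendon (SD, n = 3 each), a difference of -8.12 (SE 1.12; unadjusted p = 0.000443 and adjusted p = 0.322 in limma), or 278-fold. The 3 injured values lie close together and far below every control value. They also lie near the median of the unnamed probe sets on those arrays (5.59, 6.61 and 6.50), so that background bounds the size. Mylk4 was the 1 gene of the 38 that was lower on injured replicate 1 than on both other injured arrays.

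Fast and slow isoforms were then set against each other, as differences from the control mean and not as levels. Of 14 fast genes 13 were measured, with a median difference of -4.84, and 9 slow genes had a median of -1.91. On injured replicate 1 the medians were -0.08 for the fast and -0.11 for the slow genes. On injured replicate 2 they were -6.72 and -4.93. On injured replicate 3 they were -7.01 for the fast genes and -0.81 for the slow genes, while control replicate 3 itself stood at -0.71 for the fast and -0.61 for the slow genes. Of the slow genes, 6 of 9 lay within the control range on injured replicate 3, and of the fast genes 0 of 13. Slow genes started lower, with a median signal of 11.90 to 15.13 on the control arrays, against 17.21 to 18.49 for fast genes. On injured replicate 2 the slow median signal was 7.21, near the unnamed median of 6.61, so background bounds the fall of slow genes there.

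Pairing each fast gene with its paralog left 9 of 10 pairs measured, in which Actn3 was set against Actn2. On injured replicate 3 the fast paralog stood lower against control than its partner in 9 of 9 pairs, by a median of -6.04, with a range from -3.11 for Myl1 and Myl3 to -6.66 for Casq1 and Casq2. That median is the value of Myh4 and Myh7, which the ceiling bounds, and over the 8 pairs without a gene at the ceiling it was -6.07, with 8 of 8 pairs lower. On injured replicate 2 it was lower in 6 of 9 pairs, with a median of -1.12, and the sign turned for Mybpc2 minus Mybpc1, at 2.08, and for Actn3 minus Actn2, at 1.09. Myh4 minus Myh7 read 5.68 there, but its sign is not set, because Myh4 was at the ceiling on the control arrays and its difference is a bound. On injured replicate 1 it was lower in 6 of 9 pairs with a median of -0.35, and the control arrays ran from -0.89 to 0.82. This pattern is that of 1 array, injured replicate 3, and has no replicate. No test was made over the pairs. On injured replicate 2 background bounds the gap of any pair with a gene near the unnamed median (6.61). Among such genes were the slow Casq2 (6.90), Tnni1 (6.92), Myl3 (6.94), Myh7 (7.06) and Tnnt1 (7.21), and the fast Tnni2 (6.19).

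**Figure D2:**
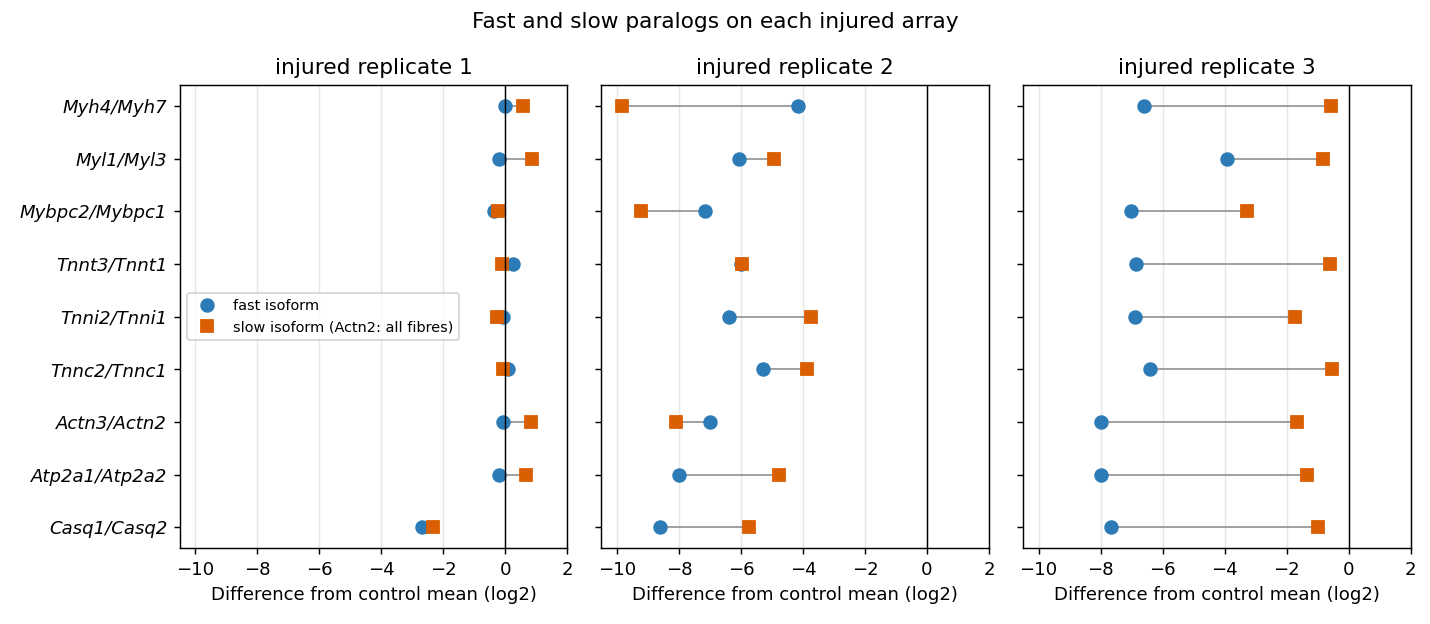
Difference from the control mean (log2, x axis) of the fast gene (circle) and its slow or general paralog (square) in 9 pairs, 1 panel per injured array. The symbols of a pair lie close on injured replicate 1 (gaps from -1.06 to 0.36), both lie far left on injured replicate 2, and the fast gene lies left of its partner in every pair on injured replicate 3 (median gap -6.04, or -6.07 over the 8 pairs without Myh4, whose position is bounded by the ceiling).

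Injured replicate 3 and injured replicate 2 were alike over all genes (r = 0.965) but less so over the 38 muscle genes (r = 0.674, a description across genes). At least 2-fold higher on injured replicate 3 than on injured replicate 2 were 19 of the 38 muscle genes, against 1.31% of all genes. They comprised 9 of 9 slow isoforms, with a median of 4.12, and 1 of 13 fast isoforms, Myl1, where the median of the list was -0.50. Of the 16 genes in neither list, 9 were at least 2-fold higher, among them Actn2 by 6.42, Acta1 by 5.48, Mb by 5.25, Ttn by 4.93 and Neb by 4.67, with Acta1 bounded by the ceiling. Myh7 had the largest difference of all 22093 genes between these arrays, 9.26.

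**Figure D3:**
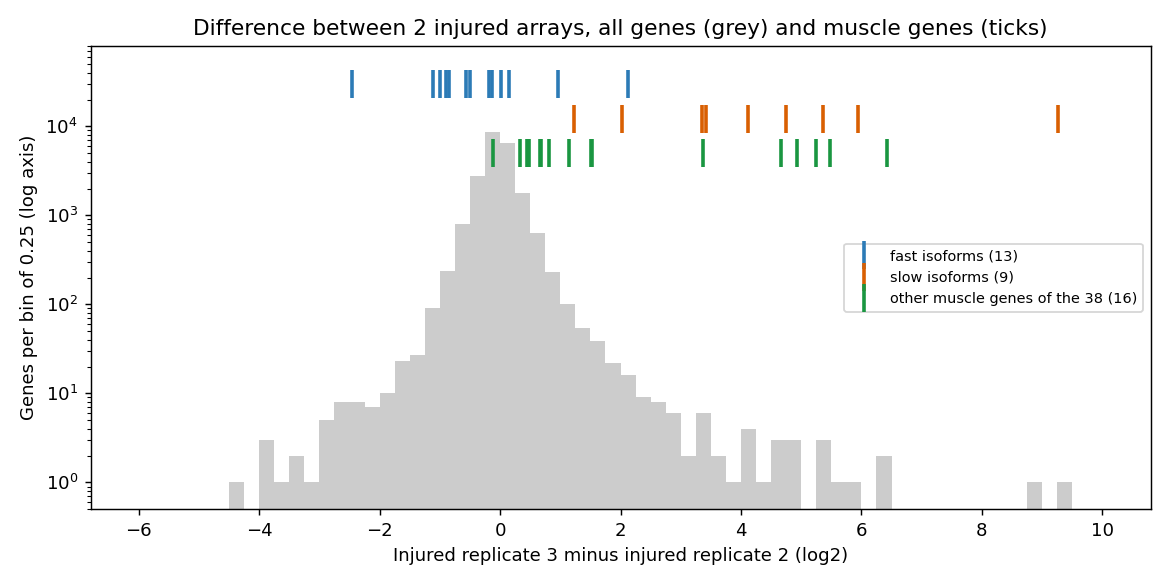
Injured replicate 3 minus injured replicate 2 (log2, x axis) for all 22093 genes (grey histogram, count on a log axis), with ticks for fast isoforms, slow isoforms and the other muscle genes. Slow isoforms lie between 1.23 and 9.26, and fast isoforms between -2.46 and 2.13.

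On injured replicate 1, 32 of the 38 genes lay within the range of the 3 control arrays. The top of that range was mostly set by control replicate 1. The median over the 38 genes, -0.07 on injured replicate 1, lay below that of control replicate 1 (1.31). It lay above those of control replicates 2 and 3 (-0.495 and -0.64). Below every control array were 5 genes (24.3% of all genes were), namely Mylk4, Myom2, Casq1, Casq2 and Ldb3, and above every control array was Myh2 (21.0% of all genes). At least 2-fold below the control mean were Mylk4 by -8.44, Myom2 by -4.07, Casq1 by -2.70, Casq2 by -2.35, Pvalb by -1.59 and Myoz1 by -1.27. The control arrays were not alike either. Control replicate 1 had the highest control value for 36 of the 38 genes, and 25 of the 38 were at least 2-fold above the control mean there. By the latter measure 444 of all 22093 genes and 195 of the 1340 bright genes were above it. How many of all genes had their highest control value there was not counted. Leaving control replicate 1 out left 34 of 38 genes at least 2-fold lower, and 0 muscle genes past the adjusted test.

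Other genes of striated muscle were read from lists given by name, where 0 genes passed the adjusted test in either direction. Among 33 further sarcomere genes, 15 were at least 2-fold lower and 3 at least 2-fold higher, with a median of -0.78. Of all genes, 10.9% were at least 2-fold lower and 9.68% higher, and of the bright genes 65.0% were lower. Tmod4, which caps the pointed end of actin in skeletal muscle, read 10.30, 6.67 and 7.47 on the injured arrays, against 15.20, 12.40 and 11.60 on the control arrays. Tpm2, beta-tropomyosin, read 19.12, 8.56 and 14.89 on the injured arrays, against 19.60, 18.40 and 18.01 on the control arrays. Tpm2 has 2 probe sets, and its difference was -4.48 for the brighter one and -3.14 for the mean of both. Tmod4 was below every control value on each injured array, and Tpm2 on injured replicates 2 and 3.

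Part of that list stood high on injured replicate 1, where 15 of the 33 genes were at least 2-fold above the control mean (3.32% of all genes were), with a median of 0.85. Control replicate 1 stood higher by the same measure, with 21 of the 33 genes (444 of all 22093 genes were) and a median of 1.53. The following genes were chosen after their values were seen. Trim63, a ubiquitin ligase gene known from muscle wasting, read 18.22, 8.92 and 8.55 on the injured arrays, against 12.88, 8.75 and 8.75 on the control arrays. Csrp3, which encodes a muscle LIM protein of the Z-disc, read 14.32, 9.11 and 13.84 on the injured arrays, against 11.11, 9.19 and 9.57 on the control arrays. Nrap, a gene of myofibril assembly, read 18.15, 10.02 and 11.84 on the injured arrays, against 16.56, 13.24 and 13.57 on the control arrays. Xirp1, an actin-binding repeat protein gene of muscle, read 10.97, 7.80 and 9.43 on the injured arrays, against 8.46, 7.51 and 7.64 on the control arrays. Csrp3 and Xirp1 were above every control on injured replicates 1 and 3, and Trim63 and Nrap on injured replicate 1. Their adjusted p in limma lay between 0.322 and 0.739.

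Among 27 further genes of calcium handling and excitation, 12 were at least 2-fold lower and 0 higher, with a median of -0.78. Of all genes, 10.9% were lower and 9.68% higher by that measure. Fxyd1, which encodes phospholemman, a regulator of the sodium pump, read 11.47, 8.10 and 8.54 on the injured arrays, against 13.28, 12.66 and 12.09 on the control arrays. Srl, sarcalumenin, a calcium-binding protein of the reticulum, read 11.04, 8.16 and 9.0 on the injured arrays, against 14.61, 11.84 and 11.53 on the control arrays. Both genes were below every control value on each injured array. Genes of muscle energy metabolism were at least 2-fold lower in 15 of 17 cases (65.0% of bright genes were), with a median of -3.47. Pgam2, the muscle phosphoglycerate mutase, read 9.25, 6.64 and 6.58 on the injured arrays, against 14.39, 12.79 and 11.40 on the control arrays. Pygm, muscle glycogen phosphorylase, read 18.36, 10.42 and 11.06 on the injured arrays, against 19.13, 18.21 and 18.04 on the control arrays, so that on injured replicate 1 Pgam2 was low and Pygm was not.

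Markers of other cell types are given beside these results, and their part in them was not tested. Over 12 tenocyte markers the median was -3.57, -7.20 and -5.41 on injured replicates 1, 2 and 3, against -1.44, -0.02 and 1.03 on control replicates 1, 2 and 3. On the control arrays the order was thus opposite to that of the muscle genes, with control replicate 1 highest for muscle and lowest for tenocyte markers. Kera differed by -7.83 (SE 0.94), Chad, chondroadherin, by -7.64 (SE 1.66) and Ogn, osteoglycin, by -7.14 (SE 1.71). Dcn, the small proteoglycan decorin, was at the ceiling on injured replicate 1 and on every control array, and read 18.57 and 16.17 on injured replicates 2 and 3. Among 9 heart muscle markers 0 were 2-fold lower or higher (10.9% and 9.68% of all genes were), with a median of 0.14. The largest difference in that list was 0.60 for Ryr2, the release channel of the heart (SE 0.30), with -0.42 for Myl4 and -0.40 for Actc1, its brightest genes. Tnni3, cardiac troponin I, read 5.68 to 6.18 on injured and 5.81 to 5.90 on control arrays.

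Smooth muscle markers had a median of 0.63, -1.49 and -1.22 on the injured arrays, and Acta2, smooth muscle actin, read 14.92, 8.51 and 8.87 there, against 12.97, 15.78 and 13.97 on the control arrays. Des, which encodes desmin, the intermediate filament of all muscle types, read 17.80, 10.59 and 15.41 on the injured arrays, against 18.74, 16.48 and 16.08 on the control arrays. Markers of satellite cells and regenerating muscle had a median of 0.08, -0.07 and 0.11. Pax7 and Myod1, which mark satellite cells and myoblasts, read 5.07 to 6.02 over the 6 arrays. Of the same list, Myf6 read 16.51, 9.33 and 11.23 on the injured arrays, against 14.49, 11.13 and 9.58 on the control arrays, and the embryonic myosin Myh3 read 8.99, 7.39 and 9.31, against 11.36, 10.12 and 10.25. Leukocyte markers had a median of -0.31, 1.47 and 0.90 on the injured arrays, against -0.03, 2.14 and 2.0 for the olfactory and vomeronasal receptor genes. S100a9, a calcium-binding protein gene of neutrophils, read 5.67, 10.45 and 8.15 on the injured arrays, against 5.09, 5.47 and 5.45 on the control arrays. S100a8, its partner, differed by 1.57 (SE 0.62), Ptprc, the leukocyte antigen CD45, by 0.68 (SE 0.98) and Cd14, a monocyte receptor, by -0.43 (SE 0.69). Scx, Tnni3, Pax7 and Myod1 were named as defining markers after their values were seen. The 11 reference genes had a median of -0.29, -2.63 and -2.41 on the injured arrays, less far below control than the fast genes on injured replicates 2 and 3, but farther than the slow genes on injured replicate 3 (-0.81). Of these, Pgk1, a glycolytic enzyme, differed by -2.55 (SE 0.79) and Sdha, a mitochondrial enzyme, by -2.24 (SE 0.92).

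**Figure D4:**
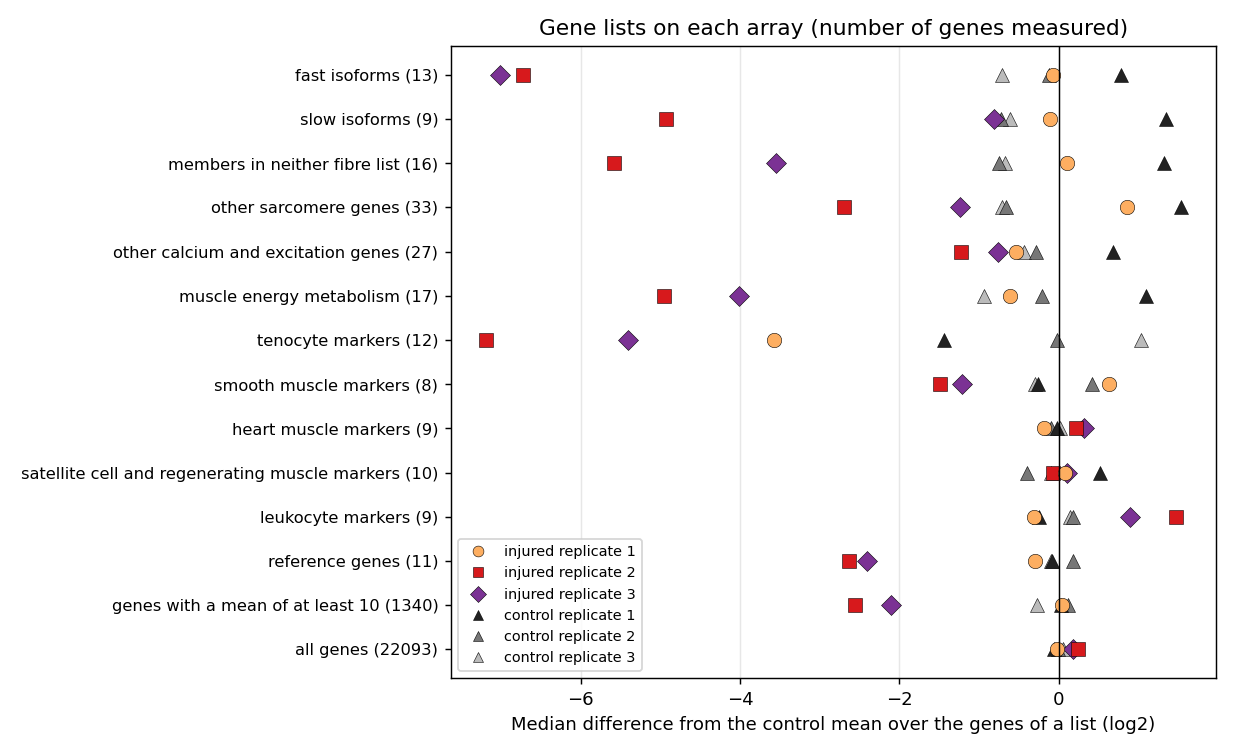
Median difference from the control mean (log2, x axis) over the genes of each list (rows, with the number measured), with 1 symbol per array. Fast isoforms lie at -6.72 and -7.01 on injured replicates 2 and 3, slow isoforms lie at -4.93 on injured replicate 2 and at -0.81 on injured replicate 3, and bright genes as a whole lie at -2.56 and -2.11.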

How the data were processed

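Tendon RNA was hybridised to 6 arrays, 1 per sample. The deposited values are log2 signals per probe set, and per the submitters' processing notes the software was Affymetrix Expression Console. No source used here gives its version, the background correction or the normalization, and the log2 scale was read from the values, which run from 3.02 to 19.93. The titles name a rat array and the protocol a mouse array, and the annotation names rat genes. Of 68842 probe sets, 23446 name 1 gene, 505 several and 44891 none, the last being unnamed here. The brightest probe set by mean over the 6 arrays stood for each of 22093 genes.

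Values were used as deposited. Injured was compared with control in limma 3.58.1 (R 4.3.3; lmFit, eBayes, two-sided, Benjamini-Hochberg adjustment over all genes, threshold 0.05), after a check on simulated data. Differences are injured minus control. SE is the standard error and SD the standard deviation over 3 arrays. With 3 arrays a group, the smallest p that exact permutation allows is 0.1, and it was not used. Arrays have no read depth, so their number limits the precision.

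The muscle genes and the lists were chosen with earlier results of these data known. By a fixed rule, values on every array were given for the fast and slow pairs, 8 other muscle genes and genes at the ceiling, and the 2 largest differences of each other list and the brightest markers of cell types were named. Values on every array of Myh1, Myh2, Myl2, Myom2, Ldb3, Trdn and Mylk4 were added after they were seen. Alternatives were quantile normalization, centring, leaving out dim genes or genes at the ceiling, the mean of probe sets, trend and robust eBayes, array weights, the replicate number as a block and each array left out. Injured replicate 1 alone against control was added after seeing the data.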

Additional observations from a re-analysis of the deposited data

How the results depend on the processing

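No muscle gene was called with quantile normalization, centring, dim genes or genes at the ceiling left out, the mean of probe sets, trend and robust eBayes or the replicate block. Deviations from the group mean correlated between same-numbered arrays with r = 0.480, -0.043 and 0.589 for replicates 1, 2 and 3. With 3 arrays a group, deviations within a group depend on one another. These values therefore cannot show whether the numbers pair the samples, and the labels do not say. With the replicate block 0 genes were called, and 22 of the 38 muscle genes, against 6 without the block, were lower at an unadjusted p under 0.05. Of all 22093 genes, 2108 were lower by that measure with the block and 1602 without it. Leaving out 1 array at a time gave 0 to 13418 genes and 0 to 26 muscle genes called, the upper values without injured replicate 1, and 27 to 38 muscle genes at least 2-fold lower. Without control replicate 1 the lowest adjusted p of a muscle gene was 0.0513. Over the same fits the median difference was -5.24 to -1.98 for muscle genes, -7.01 to -3.54 for fast and -3.05 to -0.36 for slow isoforms, and -3.14 to -0.62 for fast minus slow over pairs. It was -1.58 to 0.08 for other sarcomere genes, -1.07 to -0.47 for other calcium genes, -4.89 to -2.46 for energy metabolism, -6.83 to -5.15 for tenocyte, 0.08 to 0.25 for heart, -1.53 to -0.48 for smooth muscle, 0.03 to 0.19 for satellite cell and 0.40 to 1.18 for leukocyte markers, and -2.83 to -0.69 for reference genes. Myl3 turned sign without injured replicate 2.

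With array weights 18098 genes and 26 muscle genes were called, fast minus slow over pairs was -6.36, and the medians were 0.34 for heart markers and -2.46 for reference genes. That weighting stopped before convergence, with a weight of 29 on injured replicate 3 and 0.0531 on injured replicate 1. Quantile normalization moved the median of all genes to -0.28 and centring to -0.38, from 0.15. The median was then -0.37 and -0.39 for heart markers and -0.34 and -0.37 for satellite cell markers, and centring gave -1.30 for other calcium genes. For leukocyte markers quantile normalization gave 0.23 and centring 0.15, from 0.68. With the mean of probe sets the median of the reference genes was -0.65, from -1.54, so its size depends on the probe sets used. The reference medians on single arrays were not recomputed that way. Without dim genes heart markers had -0.0633 and satellite cell markers -0.63. Injured replicate 1 alone, a setting chosen after seeing the data, gave 9 genes called, 0 muscle genes called and 6 muscle genes at least 2-fold lower, assuming that a lone array varies like the controls. Its medians were -0.0733 for muscle genes, -0.0767 for fast isoforms, 0.85 for other sarcomere genes, -0.62 for energy metabolism, -3.57 for tenocyte, -0.19 for heart, 0.63 for smooth muscle and -0.31 for leukocyte markers, and -0.29 for reference genes, and 17 of the 38 muscle genes turned sign. The cause of these changes was not tested. Genes at the ceiling or near the unnamed median have only bounded differences.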

Other observations

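Among genes outside the muscle set, Car3, the carbonic anhydrase of slow muscle, read 19.49, 9.22 and 18.05 on injured replicates 1, 2 and 3, against 19.81, 19.68 and 19.49 on control replicates 1, 2 and 3. Its gap between injured replicates 3 and 2 was 8.83, next in size to that of Myh7. Postn, which encodes the matrix protein periostin, read 10.46, 7.22 and 12.86 on the injured arrays, against 11.67, 13.64 and 11.13 on the control arrays, and differed by 5.64 between injured replicates 3 and 2. Both genes were chosen after their values were seen.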
